A study of Mus musculus with 12 samples.

Results

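The genes of the elastic fibre and its microfibril scaffold were examined in molar tooth germs of mice labelled as heterozygous or null for the transcription factor gene Nfic. The set was chosen by gene symbol, with earlier results of these data known. It holds 10 of the 25899 genes in the table, namely Eln, Fbn1, Fbn2, Fbln1, Fbln2, Fbln5, Mfap2, Mfap4, Mfap5 and Emilin1. All 10 were found, and 9 of them had a mean of at least 1 RPKM, a read count scaled to transcript length and library size, and were tested. RNA came from the cut-off apical part, the root end, of first mandibular molars of C57BL/6 mice at postnatal day 4. The 6 null mice were Nfic-/-. The 6 controls were Nfic+/- littermates that carried 1 intact copy, so no wild-type animal was part of the comparison. The series title sets the work within an Nfic and Hedgehog cascade of the tooth root.

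Elastic fibres consist of a core of cross-linked elastin on a scaffold of microfibrils, which are polymers of fibrillin decorated with microfibril-associated proteins. Fibulins and emilins sit between the core and the scaffold and guide the deposition of tropoelastin, the soluble form of elastin. Microfibrils also bind latent TGF-beta complexes, and bundles of microfibrils with little or no elastin, the oxytalan fibres, run through the periodontal ligament around the tooth root.

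Library numbers run from 5 to 10 in both genotypes and were read as the 6 littermate pairs of the series. No label states this pairing outright. Each library held 70.2 to 96.4 M reads, and 11014 to 12518 genes reached 1 RPKM. Dental epithelium, odontoblast and papilla mesenchyme markers were present, with all 10 genes of each list at 1 RPKM or more on average. Amelx, the main enamel matrix gene, took 3.40% to 13.5% of gene reads, most in heterozygous library 5 (13.5%) and null library 6 (12.7%). Intestinal epithelium genes summed to 126.5 to 164.7 RPKM in the 4 libraries numbered 8 and 9 and to under 0.6 RPKM in the others. Nfic itself ranged from 11.4 to 24.5 RPKM in the controls (median 15.9) and from 7.90 to 16.5 RPKM in the null molars (median 11.5). It was lower in 6 of 6 pairs. The difference of the group means was -0.52 in log2(RPKM + 1) (SE 0.178 without pairing). The groups overlapped, however, and the transcript was present in every null library. The value counts reads of the whole gene, so it does not tell signal of the deleted part from signal outside it. Permuting the labels over all 924 assignments gave a 2-sided exact p = 0.0303. This p was above 0.05 without heterozygous library 6 (exact p = 0.0519), heterozygous library 10 (exact p = 0.0628), null library 5 (exact p = 0.0541) or null library 6 (exact p = 0.0541).

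No gene of the elastic fibre set passed the test between genotypes, but all 9 tested genes had a lower mean in the null molars on the log2(RPKM + 1) scale. Of 12094 genes tested with limma, 0 passed a Benjamini-Hochberg adjusted p of 0.05 (0%), and 0 of the 9 did. Differences of the 9 ran from -0.94 to -0.01 with a median of -0.31, against a median of -0.003 over all tested genes, of which 51.1% were below 0. Without null library 6 alone the median was -0.14 and 7 of the 9 were below 0, where 37% of all tested genes were. Without heterozygous library 6 alone 6 of the 9 were below 0, where 37.4% of all tested genes were. Only Emilin1 had an unadjusted p under 0.05, in a table where 2.72% of tested genes had one in that direction. Fbn2, Mfap4, Emilin1 and Fbn1 were lower by 0.5 or more, as were 2.16% of all tested genes. These 4 genes and Eln were lower in 5 or 6 of the 6 pairs, a pattern found in 8.32% of all tested genes. The median pair difference was above 0 for Fbln1 (0.046), Fbln2 (0.043) and Mfap2 (0.074), and below 0 for the other tested genes. Summed over the 10 genes, the level was 154.1 to 356.5 RPKM in heterozygous and 135.9 to 294.5 RPKM in null libraries. This sum, in which Fbln1 and Mfap2 weigh most, was lower in 3 of 6 pairs. The 9 genes are not independent of each other, as their levels over libraries show below. Marker lists of other cell types had similar shifts. All 8 tested dental follicle and ligament markers were below 0 (median -0.55), as were 10 of 10 endothelial markers (-0.38). So were 8 of 10 papilla mesenchyme (-0.49) and 9 of 10 odontoblast markers (-0.46). In the other direction, 0 of 10 dental epithelium, 0 of 3 skeletal muscle and 1 of 7 intestinal epithelium markers were below 0. In whole tissue, fewer cells of a type and less RNA per cell cannot be told apart.

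**Figure D1:**
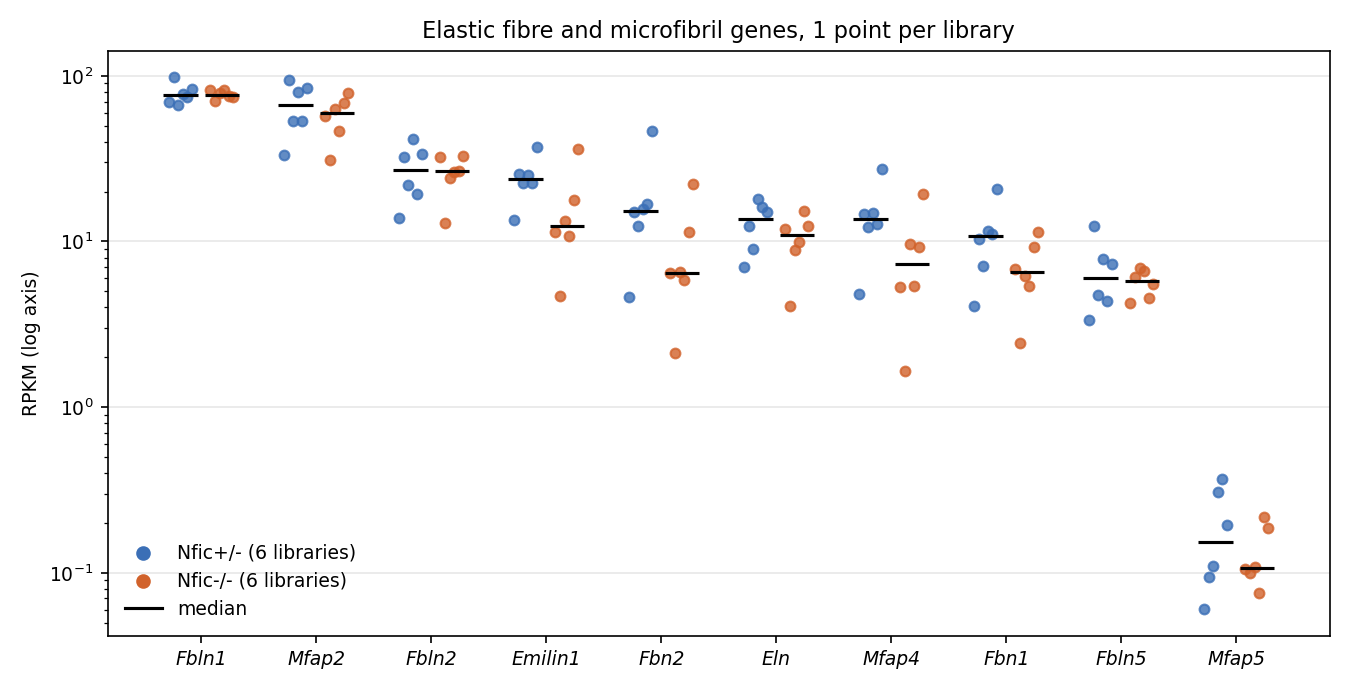
Level in RPKM (log axis) of the 10 genes in 6 Nfic+/- and 6 Nfic-/- libraries, each point 1 library and each bar the group median, ordered by mean level. The groups overlap for every gene, Fbn2, Mfap4 and Emilin1 spread widely, and Fbln1 stays between 66.4 and 97.95 RPKM.

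Levels per unit of length spanned a wide range within the set. Averaged over the 12 libraries, the fibulin-1 gene Fbln1 stood highest at 77.9 RPKM, followed by Mfap2 at 62.0 RPKM. Fbln2 (26.5 RPKM) and Emilin1 (20.1 RPKM) came next. Fbn2, Eln, Mfap4, Fbn1 and Fbln5 lay from 13.8 down to 6.18 RPKM, and Mfap5 was nearly silent at 0.160 RPKM. Mfap2 exceeded Fbln2, and Fbln5 exceeded Mfap5, in 12 of 12 libraries. The neighbours Fbn2 and Eln had no fixed order, with Fbn2 higher in 4 of 6 heterozygous and 1 of 6 null libraries. Eln and Mfap4 likewise exchanged places, with Eln higher in 7 of 12 libraries.

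Both fibrillin genes, which encode the backbone of the microfibril, had lower medians in the null molars, and Fbn2 had the widest spread of the set. Fbn2 (ENSMUSG00000024598, chromosome 18, 58008623 to 58210487, minus strand, GRCm38) encodes the fibrillin that predominates in developing tissue. It ranged from 4.63 to 46.5 RPKM in the heterozygous libraries (median 15.4) and from 2.12 to 22.2 RPKM in the null libraries (median 6.50). Library 10 was the highest of either genotype. Heterozygous library 5 fell among the null values, and null library 6 lay below all others. The means were 18.5 ± 14.4 and 9.09 ± 7.08 RPKM (SD, n = 6 each). The difference was -0.94 (SE 0.486, 95% interval -1.99 to 0.11) and did not pass (limma, Benjamini-Hochberg adjusted p = 0.952). Sample-sheet numbers in the headers repeat between libraries 5 to 7 and 8 to 10, so at least 2 sheets were used. The difference was -0.93 within libraries 5 to 7 and -0.95 within 8 to 10. Without heterozygous library 10 it was -0.63.

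Fbn1 (ENSMUSG00000027204, chromosome 2, 125300594 to 125507993, minus strand) encodes the fibrillin that persists in adult microfibrils. Its level ran from 4.08 to 20.8 RPKM in the heterozygous molars (median 10.8) and from 2.43 to 11.3 RPKM in the null molars (median 6.52). The extremes fell in the same libraries as for Fbn2, with heterozygous 5 and null 6 at the bottom and library 10 at the top. The difference was -0.55 (SE 0.337, 95% interval -1.28 to 0.17, adjusted p = 0.982). Within libraries 5 to 7 it was -0.42, and within 8 to 10 it was -0.68. Without null library 6 it was -0.33, and without heterozygous library 10 it was -0.35. Gm9913 on the opposite strand shares 2442 of the 12128 exon bases of Fbn1, and the sources used here do not state whether counting used strand, so reads there cannot be assigned to either gene.

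The balance of the 2 fibrillin genes leaned towards Fbn1 in the null molars, by a ratio chosen only after its values were known. The ratio of Fbn2 to Fbn1 RPKM ran from 1.13 to 2.24 in heterozygous libraries (median 1.48) and from 0.874 to 1.96 in null libraries (median 1.07). It was lower in the null member of 6 of 6 pairs, and 4 of 6 null libraries lay below every heterozygous one. On the log2 scale the ratio differed by -0.42 (exact 2-sided permutation test over 924 assignments, p = 0.0866). With equal numbers taken as pairs, exact sign flips gave p = 0.0312, the smallest that 6 pairs allow. The value was -0.58 within libraries 5 to 7 and -0.27 within 8 to 10. Without null library 10, whose ratio was the highest of its group, the difference was -0.58 (exact permutation p = 0.00866). With each of the other 11 libraries left out in turn it ran from -0.51 to -0.32 (exact permutation p from 0.0541 to 0.169). This ratio was picked after its values had been seen, so the p-values describe it and do not test it. Its extremes fell in the same libraries as those of Fbn1 and Fbn2, with heterozygous 5 and null 6 lowest and library 10 highest in each genotype. Whether the ratio shifts apart from those levels was not tested.

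Emilin1 (ENSMUSG00000029163, chromosome 5, 30913402 to 30921277, plus strand) encodes a glycoprotein at the interface of elastin and microfibrils. It ranged from 13.5 to 37.4 RPKM in heterozygous molars (median 23.9) and from 4.69 to 36.4 RPKM in null molars (median 12.4). Of the null libraries, 4 lay below every heterozygous library, while null library 10 nearly reached the heterozygous maximum. Emilin1 was lower in 6 of 6 pairs, with differences from -2.23 in pair 6 to -0.04 in pair 10. The difference was -0.78 (SE 0.355, 95% interval -1.54 to -0.02), with an unadjusted p of 0.046 and an adjusted p of 0.934 by limma. Libraries 5 to 7 alone gave -1.06 and 8 to 10 alone gave -0.50, and without null library 6 it was -0.51.

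The 3 microfibril-associated protein genes differed in level and in the size of their estimates, and no difference between them was tested. Mfap4 (ENSMUSG00000042436, chromosome 11, 61485431 to 61488900, plus strand) encodes a fibrinogen-related protein that binds elastin and microfibrils. Its level ran from 4.83 to 27.3 RPKM in heterozygous molars (median 13.7) and from 1.65 to 19.4 RPKM in null molars (median 7.30). Over all 12 libraries the highest value was 16.5 times the lowest, and only Fbn2, at 21.9 times, varied more. The difference was -0.83 (SE 0.435, 95% interval -1.76 to 0.11, adjusted p = 0.960). Without null library 6, the lowest of the 12, it was -0.51. Libraries 5 to 7 alone gave -0.92 and 8 to 10 alone gave -0.74. Mapk7 on the opposite strand shares 89 of the 1922 exon bases of Mfap4.

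Mfap2 (ENSMUSG00000060572, chromosome 4, 141010418 to 141015984, plus strand) encodes the small glycoprotein MAGP-1, a microfibril component that binds fibrillin. It had 33.1 to 94.1 RPKM in heterozygous molars (median 66.8) and 31.2 to 79.3 RPKM in null molars (median 60.0). It was lower in 3 of 6 pairs. The difference of -0.18 (SE 0.262, 95% interval -0.74 to 0.39, adjusted p = 1) was well inside the spread and turned to 0.10 without both libraries numbered 6. Mfap5 (ENSMUSG00000030116, chromosome 6, 122505845 to 122529290, plus strand), which encodes the related MAGP-2, was too low to be tested. It had 0.0604 to 0.370 RPKM in heterozygous and 0.0753 to 0.216 RPKM in null libraries (medians 0.153 and 0.107), behind which stood 16 to 128 reads. Its highest values were in heterozygous libraries 8 and 9 and in null library 9.

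Eln (ENSMUSG00000029675, chromosome 5, 134702593 to 134747323, minus strand), the gene of tropoelastin itself, was expressed at a moderate level. It ranged from 6.98 to 18.03 RPKM in heterozygous molars (median 13.7) and from 4.09 to 15.2 RPKM in null molars (median 10.9). Its highest value was in library 8 among heterozygous and in library 9 among null molars, where both fibrillins were highest in library 10. The difference was -0.31 (SE 0.272, 95% interval -0.90 to 0.28, adjusted p = 1), with 5 of 6 pairs lower and pair 5 higher by 0.69. Within libraries 5 to 7 it was -0.24, within 8 to 10 it was -0.38, and without null library 6 it was -0.09.

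The 3 fibulin genes had the smallest estimates among the 9 tested genes. Fbln1 (ENSMUSG00000006369, chromosome 15, 85205949 to 85286535, plus strand) encodes a fibulin found in elastic fibres and basement membranes. It had 66.4 to 97.95 RPKM in heterozygous molars (median 76.3) and 70.5 to 82.5 RPKM in null molars (median 76.8), so that all null values lay within the heterozygous range. The highest of the 12 values was only 1.48 times the lowest. With the smallest SE of the set, 0.091, the difference was -0.01 (95% interval -0.21 to 0.19, adjusted p = 1). The interval leaves out changes as large as the estimates of Fbn2, Mfap4 or Emilin1, and the sign of so small a value changed with the scaling and with single libraries.

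Fbln2 (ENSMUSG00000064080, chromosome 6, 91212455 to 91272540, plus strand), a fibulin that binds fibrillin and tropoelastin, ran from 13.8 to 41.4 RPKM in heterozygous and from 13.0 to 32.8 RPKM in null molars (medians 27.2 and 26.5). Null library 6 stood apart at 12.98 RPKM, with the other 5 null libraries at 24.1 RPKM or more. The difference was -0.03 (SE 0.263, 95% interval -0.60 to 0.53, adjusted p = 1), and without null library 6 it was 0.14. Fbln5 (ENSMUSG00000021186, chromosome 12, 101746565 to 101819055, minus strand) encodes the fibulin that tethers tropoelastin to cells and is needed for elastic fibre assembly. It had 3.35 to 12.4 RPKM in heterozygous molars (median 6.02) and a narrower 4.28 to 6.94 RPKM in null molars (median 5.81). Its heterozygous maximum was in library 6 alone. The difference was -0.11 (SE 0.231, 95% interval -0.61 to 0.38, adjusted p = 1), and 3 of 6 pairs were lower.

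Because Nfic encodes a nuclear factor I protein, whose binding site contains the motif TTGGC, the windows of 250 bases upstream of the start sites were searched for these letters on either strand. RefSeq start sites on GRCm38.p6 gave 9 windows for 6 of the genes. Eln, Fbn2, Mfap4 and Mfap5 had no window, so Fbn2 and Mfap4, with the largest differences of the set, were not searched. Of the windows, 3 held 1 motif each, those of Emilin1, Fbln2 and Mfap2. Among all 32851 windows searched, 41.5% held at least 1, so the share in the set is no more than the usual one. The palindromic form, in which TTGGC is followed after 5 bases by GCCAA, was in 0 of the 9 windows and in 0.0365% of all. The stretches are printed 5′ to 3′ on the gene's strand with the motif in capitals (GCCAA where it lies on the other strand), since they set a gene with a large difference (Emilin1) beside genes with small ones (Fbln2, Mfap2).
Emilin1, chr5:30913698-30913726, 76 bases before a RefSeq start and inside an annotated Emilin1 exon: tcaggcccagcaGCCAAggaggaggcgtg
Fbln2, chr6:91212609-91212637, 143 bases before a start and inside an annotated Fbln2 exon: agtctcaatataGCCAAagcatggtgaga
Mfap2, chr4:141010496-141010524, 173 bases before a start and outside annotated exons: aggggtgtcccgTTGGCtggttctattag
All 3 motifs lie after the annotated start of their gene, inside its span, so these windows precede RefSeq starts within the gene. A match of 5 letters is a description of the sequence and not a bound site.

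The motif was not found in the windows of Fbn1, Fbln1 and Fbln5. The upstream windows of Fbln1 and Fbln5 that touch no annotated exon are shown whole, since these fibulins stand for the genes with little difference between genotypes and the sequences differ in base composition. The Fbln1 window has 46.4% GC and 7 CpG dinucleotides, and the Fbln5 window has 65.2% GC and 21 CpG, where the median over all windows is 52.4% GC and 6 CpG.
Fbln1, chr15:85205699-85205948, plus strand: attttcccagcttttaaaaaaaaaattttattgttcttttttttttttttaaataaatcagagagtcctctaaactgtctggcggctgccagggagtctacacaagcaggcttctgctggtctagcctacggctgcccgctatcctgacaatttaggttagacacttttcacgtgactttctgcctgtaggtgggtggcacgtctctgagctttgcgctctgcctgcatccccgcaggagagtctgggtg
Fbln5, chr12:101819120-101819369, minus strand: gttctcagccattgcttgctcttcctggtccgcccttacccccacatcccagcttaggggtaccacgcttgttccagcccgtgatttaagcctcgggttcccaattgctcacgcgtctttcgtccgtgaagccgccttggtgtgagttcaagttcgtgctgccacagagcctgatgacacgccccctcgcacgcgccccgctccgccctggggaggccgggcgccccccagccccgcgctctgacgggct

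The differences within pairs were uneven, and the largest were in pair 6. Pair 6 had the most negative difference of all 6 pairs for each of the 9 tested genes, from -0.47 for Fbln1 to -2.56 for Mfap4. Pair 5 went the other way, with 8 of the 9 tested genes higher in the null molar, by up to 1.17 for Fbln2, and Emilin1 lower by 0.22. The median RPKM over all tested genes moved in the same directions in these pairs. It was 6.77 in heterozygous and 4.82 in null library 6, and 4.755 in heterozygous and 5.55 in null library 5. The part of this library-wide shift in the pair differences was not tested. In pair 8 all but Fbln1 were lower, from -1.32 for Mfap4 to -0.21 for Fbln5. Pairs 7 and 9 had differences of both signs, from -0.83 for Fbn2 to 0.47 for Fbln5 in pair 7 and from -0.53 for Fbn2 to 0.44 for Fbln2 in pair 9. In pair 10 all 9 were lower, with Fbn2 at -1.03 and Fbn1 at -0.82. Without both libraries numbered 6, 5 of the 9 genes remained below 0, where 25.8% of all tested genes were. The differences of those 5 were -0.66 for Fbn2, -0.49 for Emilin1, -0.48 for Mfap4, -0.32 for Fbn1 and -0.09 for Eln. With the pairs as a block the adjusted p by limma was 0.458 for Fbn2, 0.483 for Emilin1, 0.513 for Mfap4, 0.639 for Fbn1 and 0.910 for Eln.

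**Figure D2:**
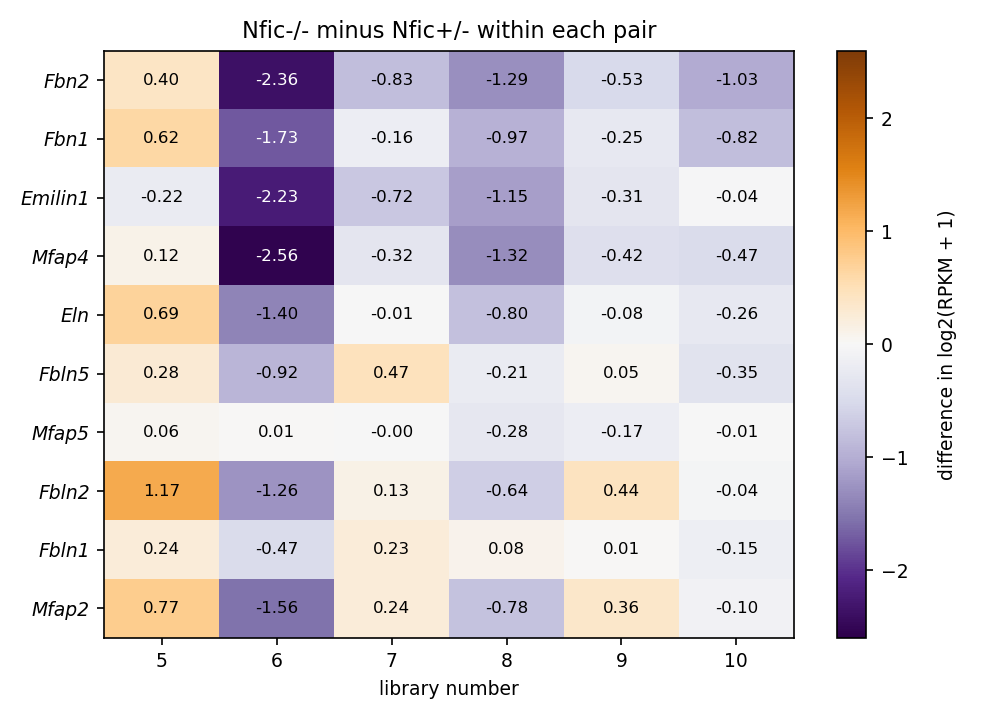
Null minus heterozygous difference in log2(RPKM + 1) of each gene (rows) within each library number (columns), with purple for lower and orange for higher in the null molar. Pair 6 holds the strongest negative differences, down to -2.56 for Mfap4, and pair 5 is mostly positive, up to 1.17 for Fbln2.

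Over the 12 libraries the genes fell along a gradient of likeness. Fbn1, Fbn2, Mfap4 and Emilin1 followed each other closely, with Pearson's r from 0.912 to 0.976 over their 6 pairings in log2(RPKM + 1). Within genotypes r was 0.897 to 0.973. Each pairing was also read without the 2 libraries farthest from the median of its first-listed gene, so the libraries left out can differ. There r was 0.813 to 0.947. Eln and Mfap2 lay closer to this group than Fbln1 and Fbln5 did. Against the 4 genes, Fbln1 had r of 0.247 to 0.422 and Fbln5 of 0.231 to 0.337. Over all 36 pairings of the 9 genes, r ran from 0.180 to 0.976 with a median of 0.749. With 2 libraries left out of each pairing in the same way, the lowest r was 0.0215 and the median 0.478. The points share libraries, depth and the makeup of each dissected sample, so these values are descriptions.

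**Figure D3:**
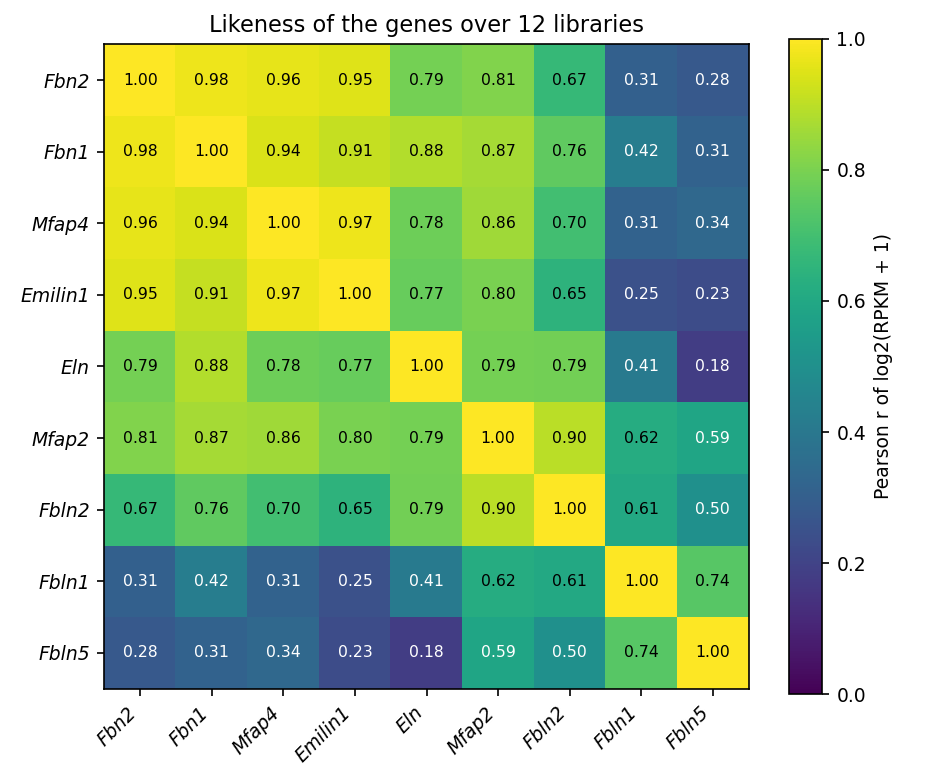
Pearson's r of log2(RPKM + 1) over 12 libraries for each pairing of the 9 tested genes, from 0 (dark) to 1 (bright). The block of Fbn2, Fbn1, Mfap4 and Emilin1 lies at 0.912 or more, and Fbln1 and Fbln5 have the darkest cells against that block, at 0.422 or less.

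The genes outside the set with the most similar pattern over the 12 libraries were named by the 3 highest r for each gene. Mfap4 was closest to Pdgfrb, the receptor gene of pericytes and mesenchymal cells (r = 0.993), the collagen VI gene Col6a2 (0.991) and Ptgs1 (0.989). Emilin1 was closest to Jam3 (0.993), the ligament proteoglycan gene Ogn (0.988) and Scarf2 (0.988). For Fbn1 the 3 were Fat4 (0.985), Myh10 (0.985) and Dchs1 (0.982), of which Fat4 and Dchs1 encode a cadherin pair that bind each other across cells. For Fbn2 they were Zfhx4 (0.990), Frmd4a (0.988) and Mgrn1 (0.982). Mfap2 was closest to Ephb4 (0.989), Aldh2 (0.979) and Spats2 (0.979), and Fbln2 to Pla2g7 (0.924), Epha4 (0.923) and Maml2 (0.922). Eln had lower top values, with B4galt5 (0.949), Dvl3 (0.942) and Pde2a (0.930). The closest to Fbln1 were Lrrc3 (0.966), Haus2 (0.931) and Vwde (0.929), and to Fbln5 Ubr3 (0.952), Zc3h6 (0.949) and Ei24 (0.948). No 2 genes of the set shared a closest gene.

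The other genes of elastic fibre formation were read from lists of 49 genes, of which 37 were tested and 0 passed in either direction. Of the 37, 31 were below 0 and 6 above, with a median of -0.33, where 51.1% of all tested genes were below 0. An unadjusted p under 0.05 was found for 7 lower and 1 higher, against 2.72% of all tested genes in the lower direction. The lists were chosen with earlier results of these data known, and all genes share the same libraries, so these counts are descriptions. Enzymes that cross-link elastin and collagen were mostly below 0, in 5 of 6 cases. Lox, the gene of lysyl oxidase, had 30.6 to 43.4 RPKM in heterozygous molars (median 34.3) and 15.98 to 30.5 RPKM in null molars (median 22.3). All 6 null values lay below all 6 heterozygous ones, but only just, at 30.46 against 30.59 RPKM for the nearest libraries. How many of all tested genes separate in this way was not counted. The Lox difference was -0.61 (SE 0.143), and the adjusted p by limma was 0.934. Loxl1, whose product is targeted to elastin, differed by -0.52 and Loxl4 by -0.52, while Loxl2 stood higher by 0.24.

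Among relatives of the set, Emilin2 ran from 5.79 to 24.3 RPKM in heterozygous molars (median 12.8) and from 2.44 to 14.04 RPKM in null molars (median 4.14). It was lower in 6 of 6 pairs. The difference of the group means was -1.02 (SE 0.362 without pairing) and did not pass (limma adjusted p = 0.934). Emilin3 was also lower in 6 of 6 pairs, at -0.75, and Mmrn2, an endothelial relative, differed by -0.35. Of the other fibulins, Fbln7 differed by -0.59 and Efemp2, the fibulin-4 gene that recruits lysyl oxidase, by -0.32. All 4 latent TGF-beta binding protein genes were below 0, from -0.38 for Ltbp2 and -0.33 for Ltbp1 to -0.07 for Ltbp3. The ADAMTS-type genes of microfibrils had 3 of 5 below 0, with Thsd4, which promotes fibrillin assembly, at -0.37 and Adamtsl2 at -0.31.

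Proteoglycans that bind microfibrils or tropoelastin were below 0 in 4 of 4 cases. Bgn, the biglycan gene, had 104.6 to 159 RPKM in heterozygous molars (median 124) and 52.6 to 106.9 RPKM in null molars (median 87.6), lower in 6 of 6 pairs by a mean of 0.61. Vcan differed by -0.73 and Dcn by -0.45. Proteases able to degrade elastin or microfibrils had 5 of 6 below 0, with Mmp14 at -0.25 and Mmp2 at -0.58. The receptors were divided, with 5 of 7 below 0. Itgb6, an epithelial integrin chain, was higher in 6 of 6 pairs by a mean of 0.33, Itga8 was lower by 0.55, and Itgb5 was higher by 0.13. None of these genes passed the test (adjusted p from 0.934 to 1 over the 37 genes).

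**Figure D4:**
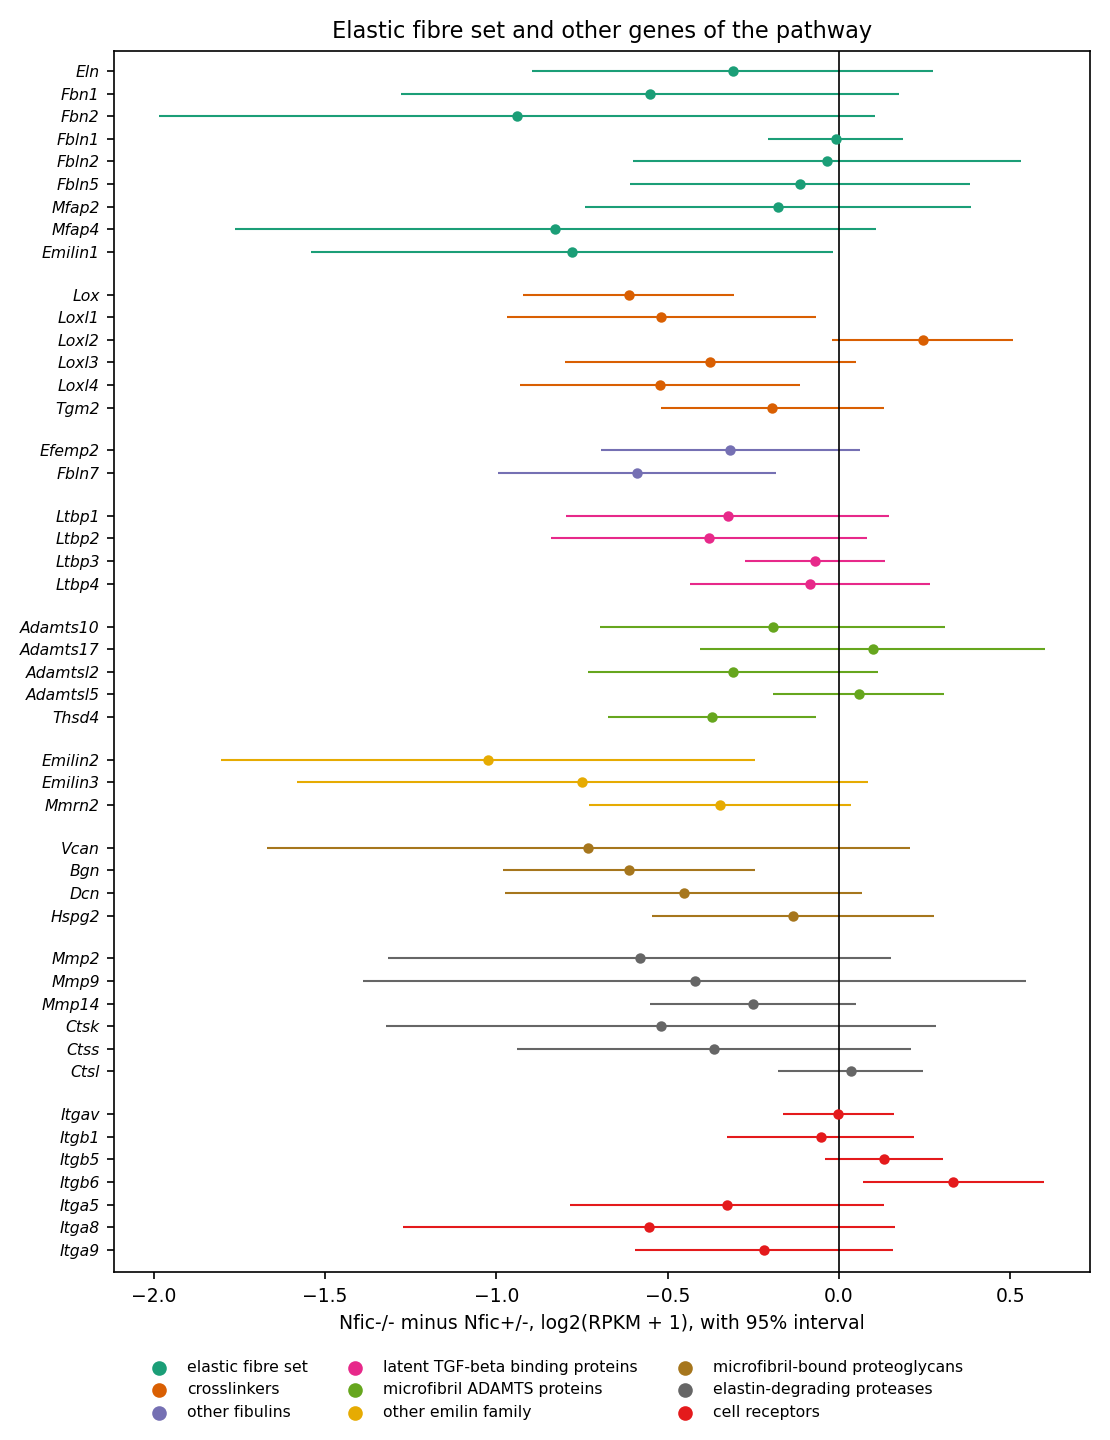
Null minus heterozygous difference in log2(RPKM + 1) with its 95% interval (limma, 6 libraries per genotype) for the 9 tested genes of the set and 37 other genes of elastic fibre formation, coloured by list. Most points lie left of 0 with intervals that cross it, and the intervals of Emilin1, Lox, Loxl1, Loxl4, Fbln7, Thsd4, Emilin2 and Bgn on the left and of Itgb6 on the right do not.

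Summed markers of several cell types also varied between the libraries, in different directions. The summed level of 10 dental follicle and ligament markers, of which Scx and Dpt were under 1 RPKM, ran from 122.3 to 439.3 RPKM in heterozygous and from 79.1 to 483.9 RPKM in null libraries and was lower in 5 of 6 pairs. The papilla mesenchyme sum (375.0 to 761.9 against 258.5 to 694.6 RPKM) and the odontoblast sum (4033 to 6192 against 2642 to 5157 RPKM) were each lower in 5 of 6 pairs. The endothelial sum, 36.6 to 68.3 against 17.7 to 58.2 RPKM, was lower in 4 of 6 pairs. The sum of smooth muscle and pericyte markers was 46.8 to 91.4 against 30.5 to 82.6 RPKM, lower in 3 of 6 pairs, with Myh11, Cnn1 and Des under 1 RPKM. The dental epithelium sum went the other way, at 1756 to 2555 against 2110 to 2953 RPKM, higher in 6 of 6 pairs.

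Null library 6, the lowest of the 12 for Fbn1, Fbn2, Mfap4, Emilin1 and Eln, was also the lowest for the follicle, papilla, odontoblast, endothelial, and smooth muscle and pericyte sums. Library 10 had the highest follicle and papilla sums of each genotype, and it held the highest Fbn1, Fbn2, Mfap4 and Emilin1 of each genotype. Nfic followed the same libraries, lowest in heterozygous 5 and null 6 and highest in library 10 of both. Cartilage markers summed to 85.0 to 149.3 against 58.1 to 122.2 RPKM, lower in 5 of 6 pairs, with Acan, Col9a1, Matn1, Matn3 and Comp under 1 RPKM. Skeletal muscle markers summed to under 10 RPKM in 11 libraries and to 49.96 RPKM in null library 9. The part of the tissue makeup in the differences of the elastic fibre genes was not tested.

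**Figure D5:**
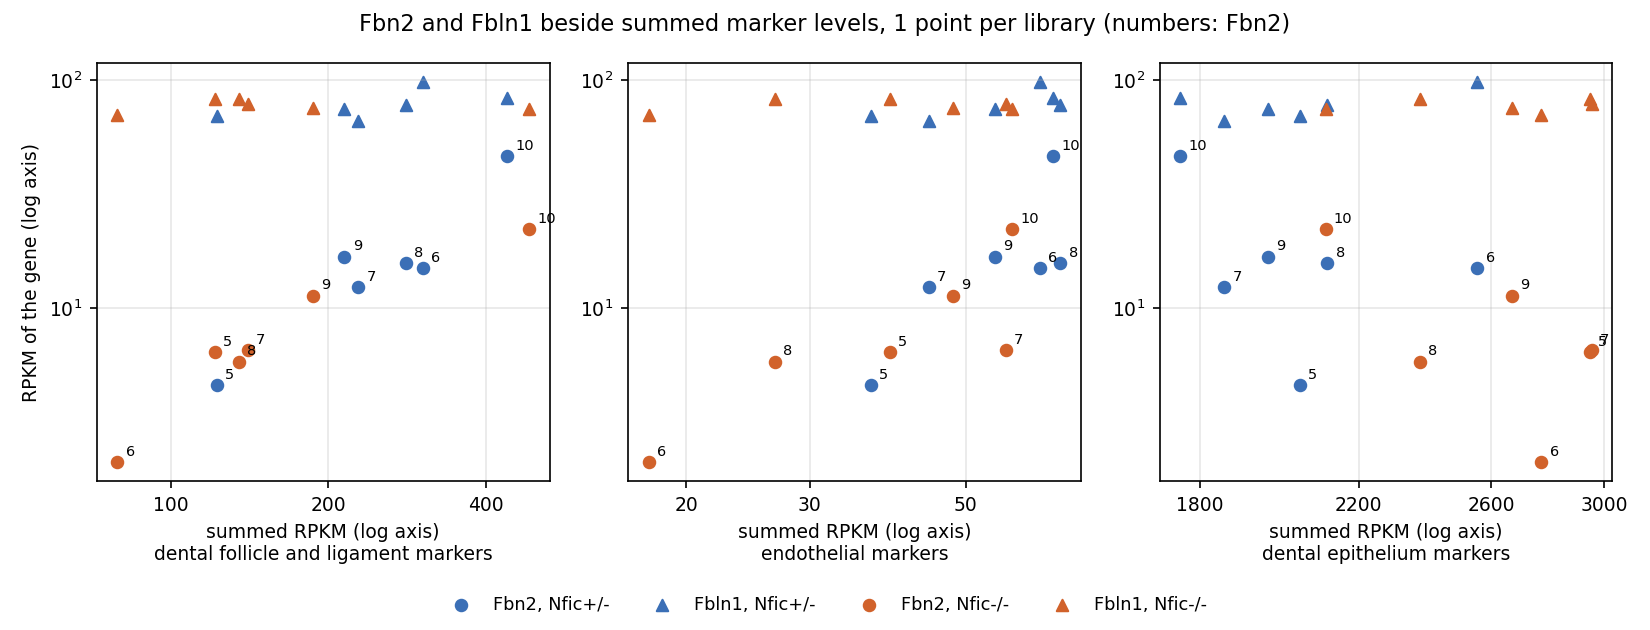
Levels of Fbn2 (circles, with library numbers) and Fbln1 (triangles) in RPKM against the summed RPKM of dental follicle and ligament, endothelial and dental epithelium markers, all on log axes, each point 1 library. Fbn2 is lowest in null library 6 (2.12 RPKM) and highest in heterozygous library 10 (46.5 RPKM), near the ends of the follicle axis, while Fbln1 is flat.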

How the data were processed

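Messenger RNA libraries of 6 Nfic-/- and 6 Nfic+/- molars were aligned with TopHat2 to mm10, per the submitters' processing notes. For the aligner's version, the counting tool and the gene annotation, nothing is given in the sources used. The deposited table is described as RPKM, but its values run from -11.1 to 16.7 and were read as the authors' log2 RPKM. Summed over gene length, base 2 gave 0.773 to 0.835 of the reads in genes, and base e an impossible 8.23 to 28.4. A gene without reads holds the value of 0.9 reads. Low values (7081 in 2677 genes, below 20 reads) were whole numbers of reads in 100% of cases within 0.02 reads, which gives the depth of each library.

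Values were turned back to RPKM, and log2(RPKM + 1) of the 12094 genes averaging at least 1 RPKM was fitted in limma 3.58.1 (R 4.3.3) with an intensity trend and genotype as the only term, with Benjamini-Hochberg adjustment at 0.05. The procedure was tested on simulated data. There each gene varied independently of the others, which the genes of these libraries do not. Nfic and, after its values had been seen, the fibrillin ratio were put through exact 2-sided permutation of library labels. Coordinates are from GENCODE M21 (GRCm38; 24987 identifiers matched, 912 not), and upstream sequences are from RefSeq. The mice are separate animals per the labels.

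All genes of the set were named, and the 2 genes of smallest p in each pathway list. Other pathway genes could be named, as could the 3 genes nearest to each gene of the set. The set and the lists were chosen with earlier results of these data known. No label states outright that equal numbers are littermates. As a check, the deviations from the genotype mean were correlated between libraries of equal number, with r = 0.492 (5), 0.00502 (6), 0.310 (7), 0.667 (8), 0.688 (9) and 0.802 (10). By this measure heterozygous libraries 8, 9 and 10 were closest to the null library of equal number. Heterozygous 5 and 7 were closest to null 6, and heterozygous 6 to null 10. The check therefore did not single out the partners of numbers 5 to 7. Alternatives were a block for the pair, different pseudocounts, filters, scalings and variance models, the library sets, and leaving out libraries.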

Additional observations from a re-analysis of the deposited data

Results flagged for a closer look

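Among the null libraries, library 6 stood apart for Fbln2, at 12.98 RPKM as the lowest of its group. On the log2(RPKM + 1) scale the gap to its nearest neighbour was 0.660 of the whole range of the 6 libraries, above the 95% critical value of Dixon's test. This was the only such case among 22 groups of 6 libraries checked for the 10 genes and Nfic, where chance gives about 1 in 20.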

How the results depend on the processing

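No gene of the set passed the threshold, and none of the other elastic fibre genes did, under any of the 24 alternatives run. The differences of Eln, Fbn1, Fbn2, Mfap4 and Emilin1 stayed below 0 in all 24, from -0.46 to -0.09, -0.77 to -0.32, -1.24 to -0.63, -1.10 to -0.48 and -1.06 to -0.49. Of the 9 tested genes, 5 were below 0 without both libraries numbered 6, where 25.8% of all tested genes were. With single libraries left out, 6 to 9 of them were below 0, where 37% to 65.7% of all tested genes were. Fbln1 turned to 0.0235 when libraries were scaled to the same median, to 0.0014 in libraries 5 to 7 and to 0.0819 without both libraries numbered 6, Fbln2 to 0.0129 and 0.21 in the latter 2 settings, and without both libraries numbered 6 Fbln5 turned to 0.0472 and Mfap2 to 0.10. With single libraries left out, Fbln1 ran from -0.0545 to 0.0562, Fbln2 from -0.20 to 0.14 and Fbln5 from -0.26 to 0.0684. The Nfic difference, -0.52, was -0.57 in libraries 5 to 7, -0.47 in libraries 8 to 10, -0.40 without both libraries numbered 6 and -0.56 without libraries 8 and 9, where exact permutation p-values were 0.2, 0.2, 0.111 and 0.143. With single libraries left out the Nfic difference ran from -0.63 to -0.41, with exact permutation p from 0.00866 to 0.0628. Under quantile normalization and under scaling to the same median the exact permutation p was 0.00433 in each. With labels permuted within the 2 library sets it was 0.025. With 3 against 3 libraries the smallest p possible is 0.1. The cause of these changes was not tested, apart from the fewer libraries in such settings. The median of the 9 genes, -0.31, was -0.09 without both libraries numbered 6 and -0.14 without null library 6. Scaling to the same median put 39.5% of all tested genes below 0, against 51.1%, and quantile normalization 41.3%. Over all genes, 646 had an unadjusted p under 0.05 by limma and 271 to 1249 under the alternatives. With the replicate block 0 genes passed, 981 had an unadjusted p under 0.05 and the smallest adjusted p was 0.0872, so no call changed, and the Nfic difference stayed at -0.52 (exact sign flips over the pairs, p = 0.0312). Mfap5 rests on 16 to 128 reads per library, which limits its precision.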
